A study of Rattus norvegicus with 14 samples.

Results

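The Rtl1-antisense miRNAs are the mature products of 5 neighbouring hairpins, mir-431, mir-433, mir-127, mir-434 and mir-136, in the imprinted Dlk1-Dio3 locus. Members were every listed miRNA whose name, with the arm removed, was one of these 5, which gave 8 of the 375 mature miRNAs in the table: miR-431, miR-433-3p, miR-127-5p, miR-127-3p, miR-434-5p, miR-434-3p, miR-136-5p and miR-136-3p. They were measured by small RNA sequencing of serum from female Long Evans rat pups on postnatal day 8, with 1 pup per litter. Control pups (8 libraries) came from dams given 0 ppm of PTU (propylthiouracil, which blocks thyroid hormone synthesis) in drinking water and are labelled euthyroid. PTU pups (6 libraries) came from dams given 3 ppm and are labelled hypothyroid, and the labels also call the dams mildly hypothyroid. The pups were exposed only through their dams, so effects of the dam's state and of the pup's own thyroid state cannot be told apart.

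Imprinted genes are expressed from the copy of 1 parent. In mouse, Rtl1, a gene derived from a retrotransposon and needed in the placenta, is expressed from the paternal chromosome, while the maternal chromosome makes a transcript from the opposite strand that carries these hairpins. Because that transcript runs antisense to Rtl1, its miRNAs match the Rtl1 mRNA base for base and direct its cleavage in mouse. A hairpin yields a 5p and a 3p arm, of which the more abundant is usually the one loaded to guide silencing.

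In the rat gene table of RefSeq (assembly GRCr8) the 5 hairpins lie on chromosome 6 within the span of Rtl1, in the order Mir431, Mir433, Mir127, Mir434 and Mir136, with Mir3543 between Mir127 and Mir434. Mir665 is the gene before Rtl1 and Mir341 the gene after it. RefSeq mature sequences (GRCr8) were found for 6 of the 8 members, and miR-127-5p and miR-136-5p had no entry in that table. These 6 are shown because the seed, bases 2 to 8 in capitals, sets which mRNAs a miRNA can pair with:
miR-431: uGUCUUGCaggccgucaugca
miR-433-3p: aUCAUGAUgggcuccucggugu
miR-127-3p: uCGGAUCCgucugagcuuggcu
miR-434-5p: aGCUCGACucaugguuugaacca
miR-434-3p: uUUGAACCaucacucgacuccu
miR-136-3p: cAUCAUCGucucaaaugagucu
Each of these 6 seeds differed from the others, and none was shared with another rat mature miRNA in the RefSeq table. Their GC content ran from 40.9% in miR-136-3p and 45.5% in miR-434-3p through 47.8% in miR-434-5p and 54.5% in miR-433-3p to 57.1% in miR-431 and 59.1% in miR-127-3p. The median was 47.6% over the 343 listed miRNAs with a sequence.

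Mir434 is the hairpin for which both arms were counted and both have a RefSeq sequence. It is printed here with the 5p arm and then the 3p arm in capitals:
Mir434 hairpin: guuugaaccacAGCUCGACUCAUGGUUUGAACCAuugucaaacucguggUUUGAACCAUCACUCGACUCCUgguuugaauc
The stretch UUUGAACCA, 9 bases long, stands at the 3′ end of the 5p arm and at the 5′ start of the 3p arm, where it holds the whole seed of miR-434-3p.

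Total counts over the listed miRNAs ran from 452961 to 2119979 per library, and 3 counts corresponded to 1.44 to 6.37 CPM (counts scaled to library size), a floor that covers counting error only. All 8 members lay far above it: the lowest count of any member in any library was 105, for miR-433-3p. Red cell RNA was gauged by miR-451-5p relative to miR-23a-3p; this log2 ratio averaged 0.12 ± 0.57 in Control (SD, n = 8) and 0.87 ± 0.78 in PTU (SD, n = 6), and its part in the values below was not tested. None of the miRNAs of the marker lists passed the threshold. A positive log2 fold change was seen in 7 of 7 erythroid, 8 of 8 brain and 4 of 8 striated muscle miRNAs. It was also seen in 2 of 4 platelet and endothelial and 1 of 3 liver miRNAs, beside 57.7% of all 357 tested miRNAs. Names were matched exactly once the arm was removed, so miR-138-1-3p was not counted although the brain list holds miR-138. Its log2 fold change was negative, at -0.60 ± 0.47 (SE; adjusted p = 0.564, edgeR). The unadjusted p was under 0.05 for 4 of the 7 erythroid, 1 of the 8 striated muscle and 0 of the other list miRNAs, beside 13.2% of all tested. The erythroid median log2 fold change was 0.82, beside 0.03 over all tested. miR-451-5p averaged 4048 ± 1136 CPM in Control (SD, n = 8) and 7709 ± 5378 CPM in PTU (SD, n = 6). The summed levels of all 5 lists overlapped between groups, though the erythroid sum was mostly miR-16-5p (92440 CPM in Control, 97845 CPM in PTU). Erythroid miRNAs together ran from 82380 to 134838 CPM in Control and from 68040 to 159535 CPM in PTU, and brain miRNAs from 3745 to 14588 CPM and from 5781 to 15225 CPM. Striated muscle ran from 413177 to 549990 CPM and from 354383 to 590990 CPM, platelet and endothelial from 7024 to 10053 CPM and from 7037 to 14434 CPM, and liver from 639 to 2917 CPM and from 548 to 2408 CPM.

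The Rtl1-antisense miRNAs were abundant in the serum of these pups, and their share of counts overlapped between the groups. Together they made up 2.72% ± 0.114 of all counts in Control (SD, n = 8; lowest 2.59%, median 2.68%, highest 2.96%). In PTU they made up 2.95% ± 0.258 (SD, n = 6; lowest 2.68%, median 2.88%, highest 3.42%). The groups overlapped, and the highest library was PTU replicate 2. The next highest PTU library, replicate 5, had 3.01%, so the wider spread in PTU rested largely on replicate 2. The members' summed level ran from 25392 to 30687 CPM in Control and from 22518 to 38092 CPM in PTU. miR-431 and miR-434-3p alone supplied 75.6% ± 2.23 of the members' counts in Control and 76.4% ± 4.29 in PTU. Serum collects miRNAs from many tissues, so the number of releasing cells and the amount of miRNA per cell cannot be told apart.

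The 8 levels fell into 3 tiers. miR-431 and miR-434-3p ranked 9 and 10 among the 357 tested miRNAs, with means over all 14 libraries of 10987 ± 1733 and 10551 ± 1823 CPM (SD, n = 14). miR-431 was the higher of the pair in 8 of 14 libraries, so their order was not settled. In the middle tier miR-136-5p averaged 1747 ± 287 CPM, miR-434-5p 1434 ± 220, miR-136-3p 1418 ± 297, miR-127-3p 1143 ± 223 and miR-127-5p 720 ± 124 CPM (SD, n = 14). Every library had more miR-434-3p than miR-136-5p. Within the middle tier the next lower member was exceeded in 12, 8, 10 and 14 of the 14 libraries. Thus miR-434-5p and miR-136-3p did not differ beyond their spread. Nor did miR-136-3p and miR-127-3p, with a mean log2 difference of 0.31 ± 0.50 (SD, n = 14). miR-433-3p was lowest at 277 ± 73.4 CPM (SD, n = 14), below miR-127-5p in every library.

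**Figure D1:**
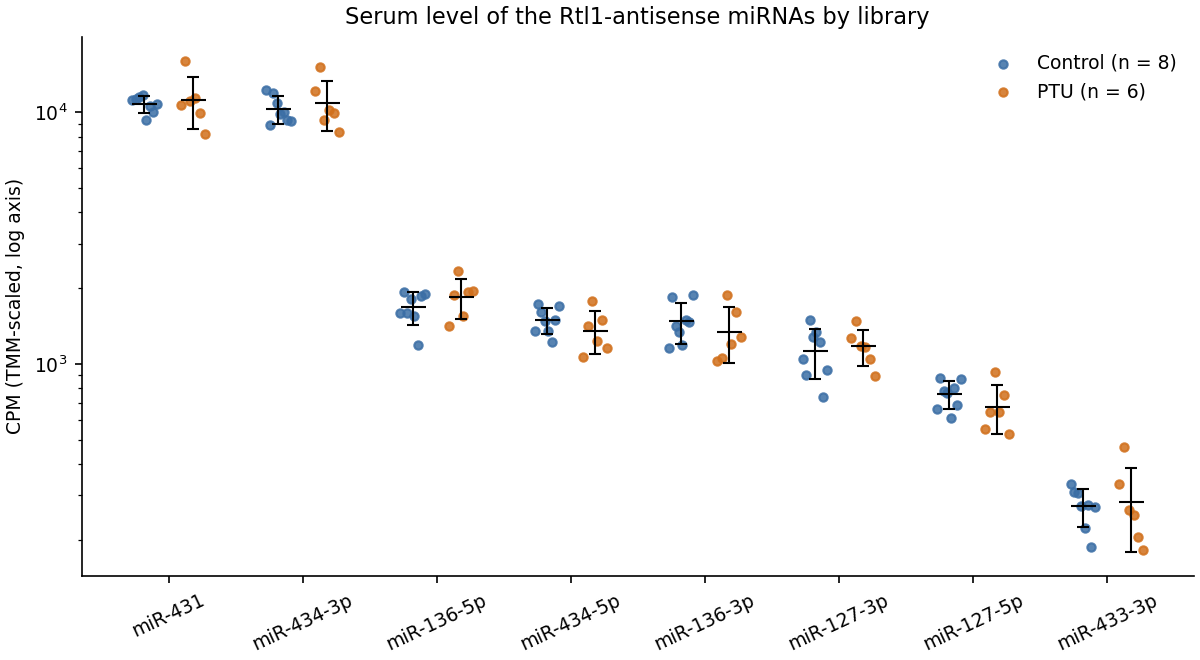
Level of each Rtl1-antisense miRNA (TMM-scaled CPM, log axis) in the 8 Control and 6 PTU libraries; points are libraries, and black bars are the mean and SD of a group. miR-431 and miR-434-3p average 10987 and 10551 CPM and miR-433-3p 277 CPM, and the groups overlap for every member; PTU replicate 2 is the high point of miR-431, miR-434-3p and miR-433-3p.

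No change in any Rtl1-antisense miRNA was detectable in the hypothyroid pups. In the PTU against Control test, 0 of the 8 members passed a false discovery rate of 0.05 (quasi-likelihood test in edgeR, adjusted by Benjamini-Hochberg over 357 miRNAs), where 0% of all tested miRNAs passed. At an unadjusted p under 0.05 there were also 0 of 8, beside 13.2% of all tested miRNAs. DESeq2, limma-voom and edgeR's likelihood ratio test likewise called 0 of the 8, beside 0.28%, 0% and 0.84% of all tested miRNAs. Fitted fold changes ran from 0.891 for miR-127-5p to 1.10 for miR-136-5p, and in none of the 8 did the groups separate, as they did in 0.56% of all tested miRNAs. The 95% intervals of all 8 lay within a 1.5-fold change in either direction, which held for 37.8% of all tested miRNAs. For 5 of 8 members the log2 fold change was positive, beside 57.7% of all tested miRNAs, and the members' median was 0.05, beside 0.03 over all tested. The sign of 4 of these 5 (miR-431, miR-434-3p, miR-433-3p and miR-127-3p) turned with upper-quartile scaling, a scaling that moved the median log2 fold change of the whole table by -0.11, and also without PTU replicate 2.

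miR-431, which in mouse takes part in the differentiation of muscle stem cells, ran from 9306 CPM through a median of 10980 to 11772 CPM in Control. In PTU it ran from 8182 CPM (replicate 6) through a median of 10892 to 15965 CPM (replicate 2). All 8 Control libraries lay between the lowest and the highest PTU library. The log2 difference fitted by edgeR was 0.05 ± 0.13 (SE; adjusted p = 0.914). Its 95% interval reached from -0.22 to 0.33, and the difference was -0.07 without PTU replicate 2. Its spread between Control pups was small: the coefficient of variation was 7.62%, and only 1.4% of tested miRNAs varied less in that group. Counting error was 0.92% for miR-431 beside a median of 7.76% over tested miRNAs, which favours miR-431 in this ranking. In PTU its coefficient of variation was 23.1%, with 35.6% of tested miRNAs varying less. The mean of the PTU group was 11223 ± 2597 CPM with all libraries (SD, n = 6) and 10275 ± 1297 CPM without replicate 2.

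miR-434-3p, the more abundant arm of a hairpin known from rodents, ran from 8923 CPM through a median of 9923 to 12325 CPM in Control and from 8342 CPM through a median of 10095 to 15204 CPM in PTU. PTU replicate 2 was again the highest and replicate 6 the lowest. The log2 fold change was 0.08 ± 0.14 (SE; adjusted p = 0.870, edgeR), and -0.04 without PTU replicate 2. The ratio of miR-431 to miR-434-3p counts within a library stayed between 0.877 and 1.27. Its SD on the log2 scale was 0.15, while the median over all 63546 pairs of tested miRNAs was 0.58. Abundant miRNAs carry little counting error, and among the 435 pairs of the 30 most abundant miRNAs 6 had a lower SD and the median was 0.41.

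The other arm, miR-434-5p, was scarcer. It ran from 1221 CPM through a median of 1483 to 1733 CPM in Control and from 1069 CPM through a median of 1324 to 1777 CPM in PTU. PTU replicate 3 was its highest library, and 2 of 6 PTU libraries lay above the Control median. Its log2 fold change was -0.14 ± 0.14 (SE; adjusted p = 0.682, edgeR).

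miR-127 is the member whose antisense pairing with Rtl1 is best known in mouse. Its 3p arm ran from 741 CPM through a median of 1132 to 1489 CPM in Control and from 896 CPM through a median of 1176 to 1475 CPM in PTU, so the PTU range lay inside the Control range. The log2 fold change was 0.07 ± 0.17 (SE; adjusted p = 0.917, edgeR), and -0.01 without PTU replicate 2. Its 5p arm ran from 610 CPM through a median of 774 to 875 CPM in Control and from 525 CPM through a median of 641 to 930 CPM in PTU. Of the PTU libraries 1, replicate 3, lay above the Control median. At -0.17 ± 0.15 on the log2 scale (SE; 95% interval -0.48 to 0.15; adjusted p = 0.653 by edgeR), miR-127-5p had the lowest p of the 8 members, 0.278 unadjusted.

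Both arms of miR-136, the last hairpin of the run, were at similar levels. miR-136-5p ran from 1186 CPM through a median of 1708 to 1934 CPM in Control and from 1414 CPM through a median of 1898 to 2344 CPM in PTU. Of the 6 PTU libraries 4 lay above the Control median, and the groups overlapped (log2 fold change 0.13 ± 0.14, SE; adjusted p = 0.711, edgeR). miR-136-3p ran from 1159 CPM through a median of 1437 to 1887 CPM in Control and from 1029 CPM through a median of 1241 to 1887 CPM in PTU. Its log2 fold change was -0.14 ± 0.17 (SE; adjusted p = 0.752, edgeR).

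miR-433-3p, the scarcest member, ran from 188 CPM through a median of 273 to 333 CPM in Control and from 181 CPM through a median of 257 to 465.6 CPM in PTU. PTU replicate 2 stood highest and replicate 6 lowest, as for miR-431. It had the widest error of the 8: the fitted log2 difference was 0.06 ± 0.20 (SE; edgeR, adjusted p = 0.943). Its 95% interval reached from -0.37 to 0.48, and the difference was -0.14 without PTU replicate 2. Its PTU coefficient of variation was 36.7%, where the median over tested miRNAs was 27.7%.

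In the authors' deposited table the log2 fold changes of the 8 members ran from -0.15 for miR-127-5p to 0.16 for miR-136-5p. No member had an FDR below 0.797 in the authors' deposited table.

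**Figure D2:**
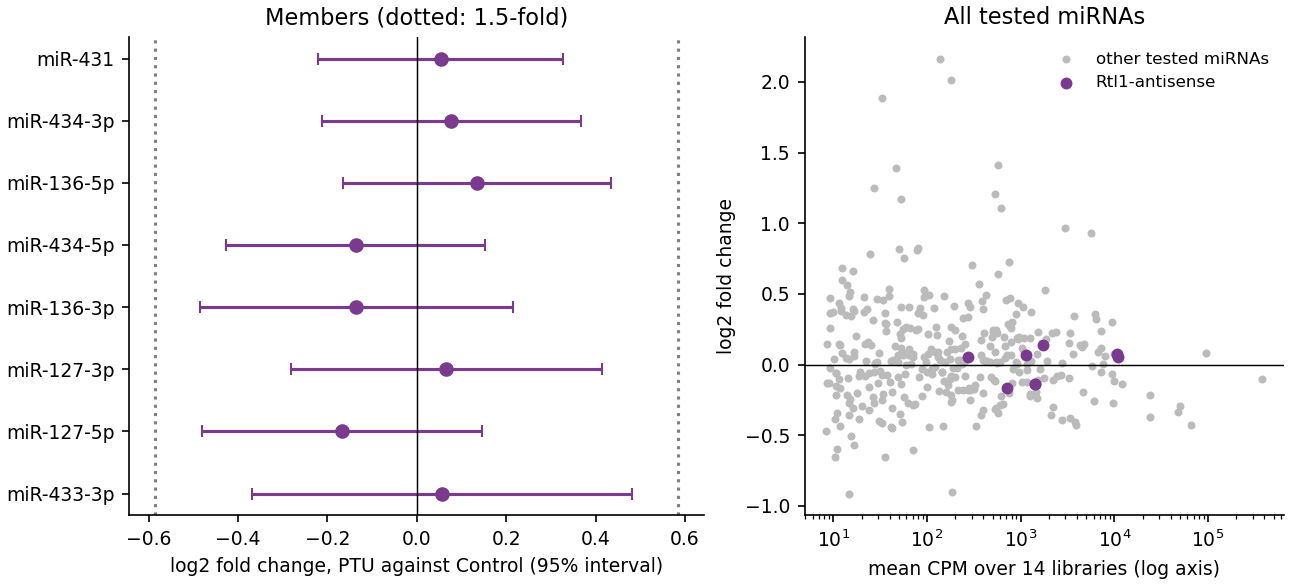
Left, log2 fold change of each member (PTU against Control, edgeR) with its 95% interval and dotted lines at 1.5-fold; right, log2 fold change against mean CPM (log axis) for the 357 tested miRNAs, with members in purple. All 8 intervals include 0 and lie within the dotted lines, and the members' values run from -0.17 to 0.13.

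The ratio of the arms of a hairpin is taken within a library and so does not depend on the scaling. It could be formed for miR-127, miR-434 and miR-136 and for 105 precursors in all. The 3 differed in arm preference: on the log2 scale, 5p over 3p averaged -0.55 ± 0.41 for miR-127, -2.79 ± 0.28 for miR-434 and 0.19 ± 0.27 for miR-136 in Control (SD, n = 8). Thus miR-127 and miR-434 were mainly 3p, and miR-136 yielded somewhat more 5p. In PTU the ratios averaged -0.81 ± 0.36, -2.995 ± 0.42 and 0.47 ± 0.21 (SD, n = 6).

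For miR-136 the ratio ran from -0.34 to 0.47 in Control and from 0.26 to 0.83 in PTU. Each of the 6 PTU values of miR-136 exceeded the Control median, as was also so for other precursors such as miR-133a, miR-145 and miR-25. The difference was 0.28 ± 0.13 (SE), with p = 0.0559 by an exact two-sided permutation test over 3003 splits and an adjusted p of 0.386 over the 105 precursors. It was -0.27 ± 0.20 (SE) for miR-127 (exact permutation p = 0.220, adjusted p = 0.679) and -0.21 ± 0.20 for miR-434 (exact permutation p = 0.291, adjusted p = 0.750). Of all 105 precursors 0% passed the adjusted threshold and 9.52% had an unadjusted p under 0.05, against 0 of these 3 by either rule. In all 3 the arm with the lower level (miR-127-5p, miR-434-5p and miR-136-3p) had the lower fold change, though none of the 3 differences passed. Other precursors went either way: miR-22 and miR-543 went the same way, and miR-28 and miR-362 the opposite way. The share over the 105 was not counted, so the pattern cannot be called particular to the members.

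The arm ratios varied with the depth of the library, a relation looked at after the values were seen. Against log2 total counts over 14 libraries, Pearson's r was 0.61 for miR-127 (permutation p = 0.0215, adjusted p = 0.043 over 6 relations; Spearman's rho 0.62, p = 0.0217) and 0.64 for miR-434 (permutation p = 0.0127, adjusted p = 0.0381; rho 0.78, p = 0.00175). Without the 2 libraries of most extreme depth r was 0.51 and 0.74. Within Control r was 0.73 and 0.78, and within PTU 0.83 and 0.90. For miR-136 r was -0.09 (permutation p = 0.748, adjusted p = 0.748; rho -0.31, p = 0.279). Across all 105 precursors r with depth ran from -0.74 to 0.90 with a median of -0.06. Of these, 11 had an r at least as high as miR-127, and 20 had one at least as large in size with either sign. The miR-127 and miR-434 ratios also went together, with r = 0.84 (permutation p = 0.00027, adjusted p = 0.00162; rho 0.81, p = 0.00091) and 0.80 without the 2 libraries farthest from the median. The part of depth in these ratios was not tested.

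**Figure D3:**
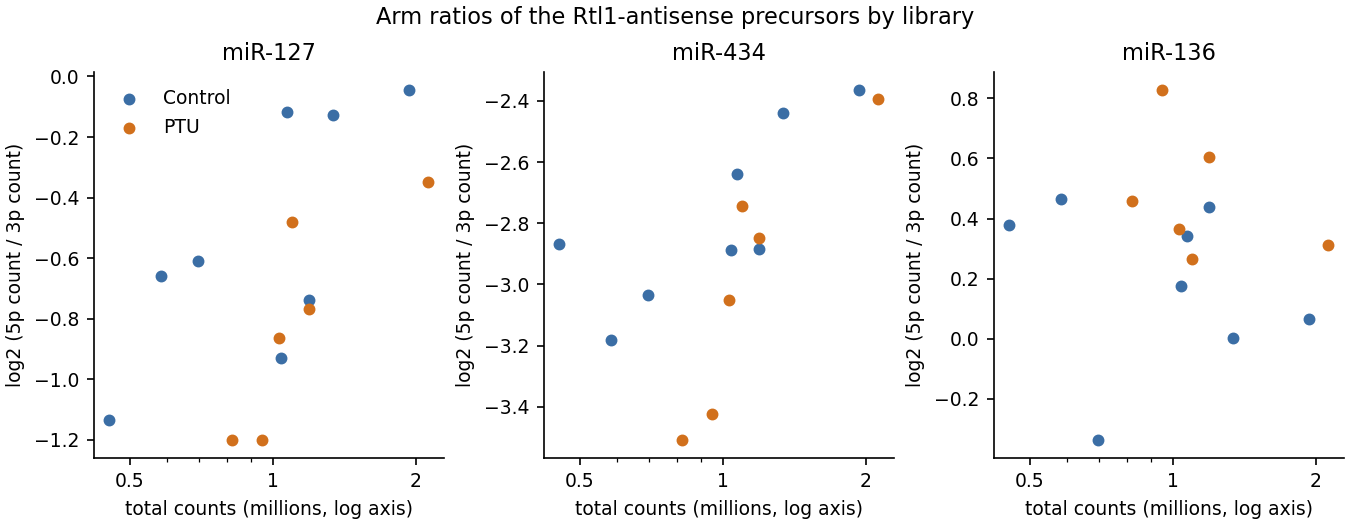
log2 ratio of 5p to 3p counts against total counts of the library (log axis) for miR-127, miR-434 and miR-136; points are the 8 Control (blue) and 6 PTU (orange) libraries. The miR-127 and miR-434 ratios are higher in deeper libraries (r = 0.61 and 0.64), and the miR-136 ratio is not ordered by depth (r = -0.09).

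Across litters the members did not vary as 1 block, and arms of the same hairpin were not the closest pairs. Of the 28 pairs of members, 3 correlated past an adjusted p of 0.05 over all 63546 pairs of tested miRNAs, of which 0.423% passed. At an unadjusted p under 0.05 there were 10 of 28, beside 13.6% of all pairs. miR-431 and miR-433-3p, from adjacent hairpins, had r = 0.86 over 14 libraries (permutation p = 9.0e-05, adjusted p = 0.0353; Spearman's rho 0.67, p = 0.0108). miR-127-5p went with miR-136-3p (r = 0.85, permutation p = 0.00016, adjusted p = 0.0456; rho 0.85, p = 0.00022) and with miR-434-5p (r = 0.84, permutation p = 0.00019, adjusted p = 0.0493; rho 0.80, p = 0.00108). The last adjusted values lie close to the threshold. Without the 2 libraries farthest from the median r was 0.65, 0.91 and 0.73. Within Control it was 0.74, 0.88 and 0.59, and within PTU 0.91, 0.83 and 0.95. Without PTU replicate 2 it was 0.75, 0.87 and 0.85.

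The other pairs were weaker or depended on the libraries used. miR-434-3p had r = 0.77 with miR-431 and 0.81 with miR-433-3p (adjusted p = 0.105 and 0.0701 by permutation over all pairs). These fell to 0.31 and 0.57 without the 2 libraries farthest from the median, so the first rests on those libraries. miR-127-3p had r = 0.68 with miR-434-3p (permutation, adjusted p = 0.184). miR-434-5p had r = 0.76 with miR-136-3p and 0.64 with miR-136-5p (permutation, adjusted p = 0.113 and 0.227). miR-434-3p and miR-136-3p had r = -0.66 (permutation, adjusted p = 0.212). miR-431 had r = 0.50 with miR-127-3p and 0.26 with miR-127-5p over all libraries, but 0.15 and 0.60 within Control and 0.35 and 0.58 without PTU replicate 2, so which arm of miR-127 it followed more closely changed with that library. By contrast, r between the arms of 1 hairpin was -0.05 for miR-127, -0.19 for miR-434 and 0.48 for miR-136. Over the 94 precursors with both arms tested the median r between arms was 0.30, and 18.1% were negative.

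Depth moved with the level of some members. The relation was taken for the 8 members only, so whether it is particular to them cannot be told. Over 14 libraries log2 CPM correlated with log2 total counts at r = 0.73 for miR-136-5p (permutation p = 0.00332, adjusted p = 0.0229 over 8 relations; rho 0.84, p = 0.00041) and 0.69 for miR-136-3p (permutation p = 0.00573, adjusted p = 0.0229; rho 0.73, p = 0.00448). Without the 2 libraries of most extreme depth these were 0.68 and 0.62. For miR-434-5p r was 0.61 and for miR-127-5p 0.57 (permutation, adjusted p = 0.0575 and 0.068). The values were 0.12 for miR-431 (0.57 within Control and -0.19 within PTU), -0.07 for miR-433-3p, -0.33 for miR-127-3p and -0.39 for miR-434-3p (permutation, adjusted p = 0.784, 0.818, 0.332 and 0.267). The part of depth in the correlations between members was not tested. CPM values of 1 library share a scaling factor, which also enters every r.

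**Figure D4:**
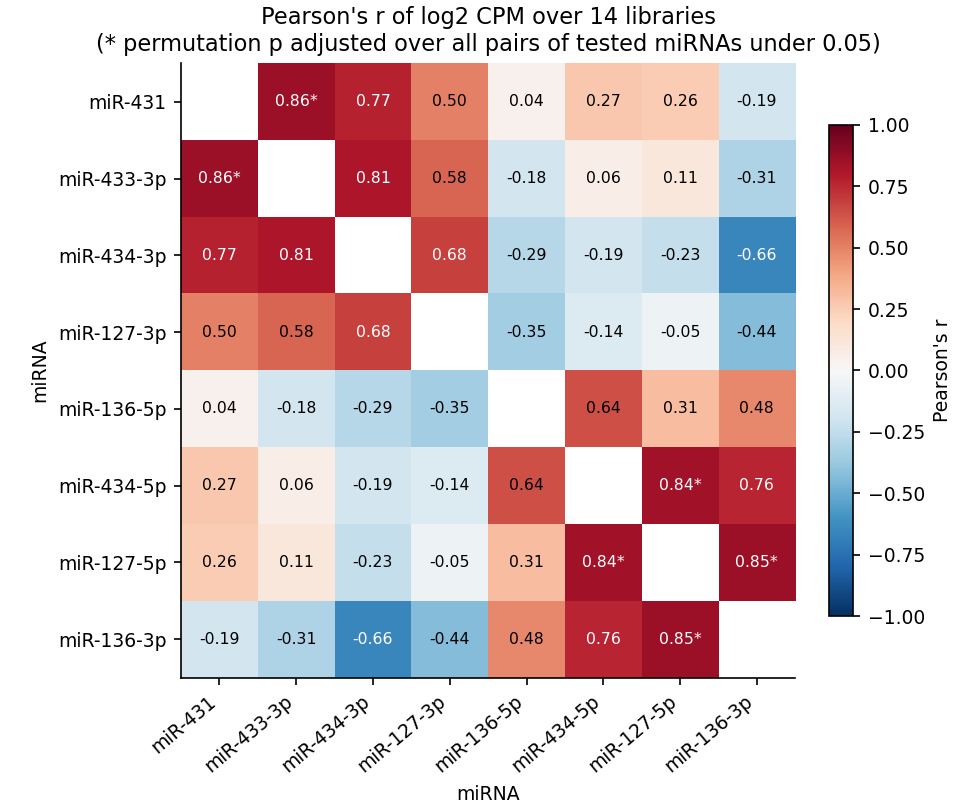
Pearson's r of log2 CPM between the 8 members over 14 libraries (red positive, blue negative); stars mark the 3 pairs past an adjusted permutation p of 0.05 over all pairs of tested miRNAs. The starred pairs are miR-431 with miR-433-3p (0.86) and miR-127-5p with miR-136-3p (0.85) and with miR-434-5p (0.84); the order of the miRNAs was chosen after the values were seen, and r of miR-431 with miR-127-3p, 0.50 here, was 0.35 without PTU replicate 2.

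The median r over the 28 member pairs was 0.18. It was 0.16 over 91 pairs of the 14 proximal Dlk1-Dio3 miRNAs that lie outside Rtl1, 0.27 over 1035 pairs of the 46 tested distal ones and -0.01 over all pairs of tested miRNAs. The miRNAs most like the members were sought by the correlation of log2 CPM over 14 libraries with the mean of the members' more abundant arms (miR-431, miR-433-3p, miR-127-3p, miR-434-3p and miR-136-5p). They were miR-409a-3p (r = 0.91), miR-134-5p (0.80), miR-206-3p (0.79), miR-541-5p (0.74) and miR-540-3p (0.73). Of these 5, miR-409a-3p, miR-134-5p and miR-541-5p are distal miRNAs of the same locus and miR-540-3p a proximal one, while miR-206-3p is a miRNA of skeletal muscle from another locus. miR-409a-3p averaged 2200 ± 212 CPM in Control (SD, n = 8) and 2582 ± 686 CPM in PTU (SD, n = 6; log2 fold change 0.23 ± 0.15, SE; adjusted p = 0.488, edgeR). These r values describe the same 14 libraries and were not tested.

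No miRNA on either side of the members in the locus passed the threshold between the groups. Of the 14 proximal miRNAs 10 had a positive and 4 a negative log2 fold change (median 0.11, 0 past the threshold, 1 at an unadjusted p under 0.05). Of the 46 distal ones 31 were positive and 15 negative (median 0.06, 0 past the threshold, 7 at an unadjusted p under 0.05). Over all 357 tested miRNAs 57.7% were positive and 13.2% had an unadjusted p under 0.05 (edgeR). The most abundant proximal miRNAs, miR-540-3p, miR-493-5p and miR-341, had log2 fold changes of -0.09 ± 0.19, 0.01 ± 0.17 and 0.26 ± 0.13 (SE). Those of the distal run, miR-382-5p, miR-541-5p and miR-134-5p, had -0.11 ± 0.13, -0.01 ± 0.14 and -0.09 ± 0.13 (SE). The members' own values ran from -0.17 to 0.13, within the distal range of -0.45 to 0.83 and the proximal range of -0.32 to 0.60. A difference between the members and these groups was not tested.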

How the data were processed

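Per the labels' protocols, RNA came from serum with a miRNA kit for serum and plasma, and the QIAseq miRNA kit was used for library construction. The authors deposited 1 table with raw counts per mature miRNA and library, not normalized. Beside these stand p-value, FDR, log2 fold change and mean log2 CPM columns, as deposited by the authors, and group means of counts (a linear signal, also deposited). The submitters' processing notes name edgeR; aligner, miRNA reference, genome build and use of molecular identifiers are not given in the sources consulted, so no coordinates are given and amplification may add spread. Totals are sums over listed miRNAs.

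Counts were fitted with edgeR 4.0.16 in R 4.3.3 (filterByExpr, 357 tested and 18 left out; TMM scaling; quasi-likelihood test of PTU against Control; 14 libraries, no covariate; FDR 0.05). The SE of a log2 fold change was its size over the root of F. log2 CPM used a prior count of 2. Arm ratios were log2 of counts plus 0.5, compared by exact permutation; correlations used 100000 permutations. Alternatives were other scalings, filters and tests (DESeq2 1.42.0, limma 3.58.1), a replicate block and each library left out. The procedures were tested on simulated data. All members were named, with the 5 most alike miRNAs and the 3 most abundant of the neighbouring groups; markers were counted by list. The members and lists were chosen with earlier results of these data known. Correlations with depth and the ratio of miR-431 to miR-434-3p were added after the values were seen.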

Additional observations from a re-analysis of the deposited data

Results flagged for a closer look

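The summed share of counts of the 8 members in Control replicate 1, at 2.96%, stood apart from the other 7 Control libraries by the gap to its nearest neighbour. It was the only 1 of 24 group values checked (8 members, 3 arm ratios and the summed share, in each group) to do so, and chance marks about 1 in 20.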

How the results depend on the processing

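The count of members past the threshold was 0 under all 24 alternatives, and no arm ratio among 105 precursors passed under any of 17. Over all miRNAs the count of 0 became 3 with edgeR's likelihood ratio test and 1 with DESeq2, and ran from 0 to 1 with single libraries left out (1 without PTU replicate 5). Small positive log2 fold changes turned sign with upper-quartile factors: -0.048 for miR-431, -0.035 for miR-433-3p, -0.038 for miR-127-3p and -0.023 for miR-434-3p. With single libraries left out they ran from -0.074 to 0.097 for miR-431, -0.143 to 0.136 for miR-433-3p, -0.011 to 0.131 for miR-127-3p and -0.043 to 0.118 for miR-434-3p, negative only without PTU replicate 2. The other 4 members and the 3 arm ratios kept their sign in every alternative. Adjusted over the 28 member pairs alone, 9 pairs correlated, 7 to 10 under other scalings or with group means removed, and 4 to 10 with single libraries left out; 4 was without PTU replicate 2.

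The replicate numbers carry no stated pairing, and deviations of same-numbered libraries correlated at -0.25 to 0.29, so they were taken as numbers only. The block changed no call: with a replicate block 0 miRNAs and 0 members passed, miR-433-3p had a log2 fold change of -0.076 and miR-127-3p of -0.048, and 0 arm ratios passed in 6 pairs, where the sign-flip test cannot give a p below 0.0312. The intervals given hold the changes that the data could not exclude, and they do not set a limit of detection. At this number of libraries larger changes could also go uncalled. For example, miR-543-3p had a log2 fold change of 0.83 ± 0.19 (SE) and did not pass (adjusted p = 0.155, edgeR). The cause of the shifts between alternatives was not tested.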
